A study of Mus musculus with 12 samples.

Results

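The genes described here encode the subunits of the mitochondrial respiratory chain and of ATP synthase. They were chosen by symbol from the 21930 protein-coding genes counted in mouse eye cups, by names that start with mt-, Nduf followed by a, b, c, s or v and a digit, Uqcr, Cox4 to Cox8 followed by a letter, or Atp5, together with Sdha, Sdhb, Sdhc and Sdhd. This gave 100 genes, of which 13 lie on mitochondrial DNA and 87 in the nucleus. Among the nuclear genes 38 belong to complex I, 4 to complex II, 8 to complex III, 19 to complex IV and 18 to complex V. The rule also takes Cox7a2l, a factor that joins complexes III and IV, Ndufa4l2, a relative of Ndufa4 induced under low oxygen, and the entries Cox5b-ps and Ndufb1-ps, and it leaves out Cyc1 (cytochrome c1) and Ndufab1 (the acyl carrier protein), which are also subunits.

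Complexes I and II pass electrons from NADH and succinate to ubiquinone, complex III passes them to cytochrome c, and complex IV passes them to oxygen. The proton gradient that complexes I, III and IV build up drives complex V, the ATP synthase. Complexes I, III, IV and V are mosaics of both genomes, because mitochondrial DNA encodes a few hydrophobic core subunits and the nucleus encodes all the rest, whereas complex II is encoded in the nucleus alone. Photoreceptor inner segments are packed with mitochondria, and the retinal pigment epithelium (RPE) relies on oxidative metabolism while passing glucose to the retina.

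Male C57BL/6 J mice, wild type and 8 weeks old when the diets began, were fed ad libitum (AL) or fasted on alternate days (intermittent fasting, IF) for 12 weeks. They then received 1 intraperitoneal injection of sodium iodate (NaIO3, 25 mg/kg), an oxidant that damages the RPE, or of PBS, and tissue was taken 7 days later. The 4 groups, AL + PBS, IF + PBS, AL + NaIO3 and IF + NaIO3, held 3 RNA-seq libraries each. Nothing in the labels says whether a library is 1 mouse. The paper describes RNA extraction from both eye cups of a mouse in its qPCR methods, and gives n = 3 for RNA-seq. The p-values measure only the spread between these samples, which may be technical. The tissue is labelled RPE, choroid and sclera, but the 20 photoreceptor markers summed to 21935 to 72355 CPM (read counts scaled to a common library size) and the 13 RPE markers to 1207 to 3262 CPM, so photoreceptor transcripts were present in every library. In bulk tissue fewer cells of a type and less RNA per cell cannot be told apart.

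The libraries held 26364665 to 43046950 counts, with a median of 31822705, and no pair of replicates agreed within sampling noise. AL + NaIO3 replicate 3 stood apart from the rest. Its summed markers were 21935 CPM for photoreceptors, against 42643 CPM or more in the other 11 libraries. They were 1518 CPM for choroid and sclera stroma, against 269 CPM or less, and 401 CPM for macrophages and microglia, against 196 CPM or less. Medians and ratios that involve AL + NaIO3 are given with and without this library. The levels per library below are CPM on TMM-scaled library sizes, and levels are compared between genes only in the deposited FPKM, which divide by gene length.

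Every mitochondrial mRNA was more abundant than every nuclear subunit gene. Averaged over the 12 libraries, the 13 mitochondrial mRNAs ranged from 901 FPKM (mt-Nd3) to 9206 FPKM (mt-Co1, the catalytic subunit of complex IV), with a median of 2489, whereas the median of the 87 nuclear genes was 77.3 FPKM. The highest mitochondrial mRNA of the other complexes was mt-Nd1 in complex I (4183 FPKM), mt-Cytb, the only mitochondrial gene of complex III (5154 FPKM), and mt-Atp6 in complex V (4003 FPKM). In the nucleus the highest were Atp5b, the catalytic beta subunit of ATP synthase (408 FPKM, range 343 to 445 over the libraries), and Cox4i1 of complex IV (309 FPKM, range 258 to 356). Their ranges overlapped, but Atp5b was above Cox4i1 in every library. Ndufa4, counted here with complex I by its name although now assigned to complex IV, was at 255 FPKM. Uqcrh, the hinge protein, led complex III at 181 FPKM, and Sdha, the flavoprotein of succinate dehydrogenase, led complex II at 102 FPKM. By complex, the median nuclear level was 108 FPKM in V, 78.6 in IV, 75.4 in III, 56.9 in I and 45.7 in II.

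The promoters of nuclear subunit genes are known for sites of NRF1, of ETS factors such as GABPA, and of YY1, all regulators of mitochondrial biogenesis. RefSeq windows (GRCm38.p6) from 250 bases before to 50 bases after the start were matched to 69 of the 87 nuclear genes and searched on both strands for GCGCATG (an NRF1 half-site), CCGGAAG (ETS) and AAGATGG (YY1). The NRF1 letters stood in 13 of these genes (18.8%) against 4.41% of all 27025 genes with a window, the ETS letters in 17 (24.6% against 9.93%), and the YY1 letters in 11 (15.9% against 7.28%). At least 1 of the 3 was present in 33 genes (47.8%) against 19.5% of all genes. The base composition also differed, with a median GC content of 56.4% in the 250 bases before the start of the matched subunit genes and 52.4% over all genes.

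The windows below are the 250 bases before the start, 5′ to 3′ on the gene's strand with the matched letters in capitals, of the most abundant nuclear gene of each complex that has 1 window with such letters before its start. Ndufs3, a core subunit of complex I whose level varied widely, is added as the sixth. Ndufa6 (chr15:82354292-82354541, minus strand) and Sdhb (chr4:140961021-140961270, plus strand) hold the NRF1 letters on the opposite strand, 82 and 53 bases before the start. Cox6a1 (chr5:115348959-115349208, minus strand) holds them on both strands in 1 overlapping run of GCGCATGCGC, 162 bases before the start, with the ETS letters 16 bases before it. The ETS letters lie on the opposite strand in Uqcrh (chr4:116075071-116075320, minus strand) and Atp5h (chr11:115419920-115420169, minus strand), and on the gene's own strand in Ndufs3 (chr2:90904722-90904971, minus strand). The deposited coordinates of Sdhb, Cox6a1, Atp5h and Ndufs3 start farther upstream than the RefSeq starts. The matched letters of Sdhb, Atp5h and Ndufs3 and the ETS letters of Cox6a1 therefore lie inside the deposited spans.
Ndufa6: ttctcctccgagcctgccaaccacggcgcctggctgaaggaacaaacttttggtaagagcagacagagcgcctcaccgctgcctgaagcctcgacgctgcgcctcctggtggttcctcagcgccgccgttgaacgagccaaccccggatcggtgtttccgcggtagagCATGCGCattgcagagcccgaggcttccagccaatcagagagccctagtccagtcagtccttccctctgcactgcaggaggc
Sdhb: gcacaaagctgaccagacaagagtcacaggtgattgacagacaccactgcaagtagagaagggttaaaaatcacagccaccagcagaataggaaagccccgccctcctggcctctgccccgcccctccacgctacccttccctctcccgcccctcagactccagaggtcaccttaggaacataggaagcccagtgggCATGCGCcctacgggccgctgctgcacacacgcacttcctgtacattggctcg
Uqcrh: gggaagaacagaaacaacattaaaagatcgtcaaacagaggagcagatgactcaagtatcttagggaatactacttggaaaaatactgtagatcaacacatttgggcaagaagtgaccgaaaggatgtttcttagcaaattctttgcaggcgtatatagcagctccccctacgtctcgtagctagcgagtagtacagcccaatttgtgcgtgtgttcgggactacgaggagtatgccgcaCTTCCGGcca
Cox6a1: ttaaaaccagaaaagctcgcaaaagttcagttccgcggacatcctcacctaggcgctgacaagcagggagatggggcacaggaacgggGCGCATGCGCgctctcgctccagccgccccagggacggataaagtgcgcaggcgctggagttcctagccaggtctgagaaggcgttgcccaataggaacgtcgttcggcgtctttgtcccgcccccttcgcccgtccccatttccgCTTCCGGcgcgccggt
Atp5h: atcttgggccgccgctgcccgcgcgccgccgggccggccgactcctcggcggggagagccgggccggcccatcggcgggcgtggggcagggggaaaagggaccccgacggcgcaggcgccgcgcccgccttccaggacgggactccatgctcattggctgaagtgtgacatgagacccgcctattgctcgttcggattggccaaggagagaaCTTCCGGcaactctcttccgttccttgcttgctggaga
Ndufs3: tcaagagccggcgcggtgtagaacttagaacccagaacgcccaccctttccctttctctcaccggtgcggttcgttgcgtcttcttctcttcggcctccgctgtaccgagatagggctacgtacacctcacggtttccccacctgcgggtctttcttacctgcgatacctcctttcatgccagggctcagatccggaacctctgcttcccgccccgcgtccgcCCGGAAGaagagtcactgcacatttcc
A match of letters is a description of the window and does not show that a factor binds there.

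To ask whether both genomes differed together, the counts of the 13 mitochondrial mRNAs were divided by those of the 87 nuclear genes in each library, a ratio that does not depend on library scaling. In AL + PBS the ratio was 5.66, 5.68 and 5.21, and in IF + PBS it was 5.26, 5.64 and 5.79. After NaIO3 it was 7.56, 6.98 and 5.78 in AL + NaIO3 and 7.07, 9.20 and 7.05 in IF + NaIO3. The NaIO3 libraries lay above the PBS libraries of the same diet without overlap, although AL + NaIO3 replicate 3 did so by a narrow margin, and the 2 diets overlapped after either injection. The group means were 5.52 ± 0.264, 5.56 ± 0.272, 6.78 ± 0.907 and 7.77 ± 1.24 (SD, n = 3) in AL + PBS, IF + PBS, AL + NaIO3 and IF + NaIO3. On the log2 scale the mean difference of NaIO3 from PBS was 0.29 in AL, or 0.40 without AL + NaIO3 replicate 3, and 0.47 in IF. It was 0.01 for IF against AL after PBS and 0.20 after NaIO3, where leaving out IF + NaIO3 replicate 2 gave 0.07 and leaving out AL + NaIO3 replicate 3 gave 0.09. These differences in ratio carry no test, since the ratio sums over genes chosen by name.

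**Figure D1:**
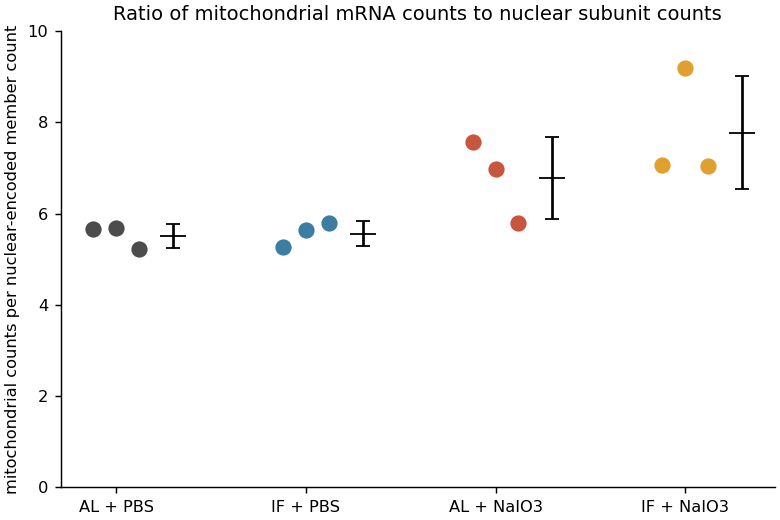
Mitochondrial mRNA counts per count of the nuclear subunit genes (vertical axis) in each library of the 4 groups, with the group mean and SD (n = 3) beside the points. The IF + NaIO3 libraries sit between 7.05 and 9.20, above all PBS libraries, and AL + NaIO3 begins just above the AL + PBS range.

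As a share of all counts, the 13 mitochondrial mRNAs took 4.19, 4.69 and 4.02% in AL + PBS, 3.86, 5.14 and 5.04% in IF + PBS, 6.94, 5.32 and 4.31% in AL + NaIO3 and 6.34, 7.44 and 5.41% in IF + NaIO3. The 3 IF + NaIO3 libraries lay above all 6 PBS libraries, and AL + NaIO3 replicate 3 lay within their range. The nuclear genes together took 0.734 to 0.918% of counts, and their 4 groups overlapped.

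The mitochondrial mRNAs were higher in IF + NaIO3 than in IF + PBS, without passing the test. All 13 had a fitted log2 fold change above 0, from 0.31 to 1.09 with a median of 0.56, against a median of 0.00097 and 50.2% above 0 over all 15305 genes tested. In 7 of them the groups did not overlap and IF + NaIO3 was higher, against 10.1% of all genes (10.9% lower), and 12 had an unadjusted p under 0.05, against 8.47% of all genes in that direction. The 13 tended to move together within a library, so counts out of the 13, here and below, are not of 13 separate results. All 13 lay below their AL + PBS means in IF + PBS replicate 1 and above them in each IF + NaIO3 library. Their median log2 difference from those means was 0.23 in IF + PBS replicate 2 and 0.31 in IF + NaIO3 replicate 3. To be called, a gene needed a fold of at least 1.5 and a Benjamini-Hochberg adjusted p below 0.05 in edgeR's quasi-likelihood test. None of the 13 was called (0% of all genes were), the smallest adjusted p being 0.174. DESeq2 on the same libraries called 5 of the 13 and 0.729% of all genes with an adjusted p. limma on log2(FPKM + 0.1) called 0 and 0% of all genes. edgeR without IF + PBS replicate 1 called 2 of the 13 and 1.27% of all genes.

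Markers of other cell types also differed between IF + PBS and IF + NaIO3. The 13 RPE markers summed to 2433 to 3039 CPM in IF + PBS and 1274 to 2218 CPM in IF + NaIO3, and all 13 had a fitted value below 0. The 5 erythrocyte markers summed to 41.7 to 57.3 CPM and 72.1 to 98.3 CPM, and all 5 were above 0. Neither sum overlapped between the groups, and no marker of either list was at 0 in a group. The photoreceptor markers overlapped, at 56673 to 62114 and 61513 to 68764 CPM. The part of these cell types in the mitochondrial mRNA levels was not tested.

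Among the mitochondrial mRNAs, mt-Nd4l, a small membrane subunit of complex I, differed most. It was counted at 283, 302 and 321 CPM in IF + PBS and at 538, 852 and 531 CPM in IF + NaIO3, a log2 fold change of 1.09 ± 0.17 (SE), with all 3 IF + NaIO3 libraries above the IF + PBS libraries and an edgeR adjusted p of 0.174. Without IF + PBS replicate 1 edgeR gave an adjusted p of 0.0323 and DESeq2 on all 6 libraries one of 2.44e-08, in a range of 2.44e-08 to 0.522 over all alternatives. mt-Nd5, a proton-pumping subunit of the same complex, was at 2853, 2799 and 3146 CPM and at 4579.6, 7107 and 4389 CPM, a log2 fold change of 0.87 ± 0.16 (SE) with an edgeR adjusted p of 0.211, or 0.0429 without IF + PBS replicate 1. The groups did not overlap there either, and the adjusted p ran over the alternatives from 2.86e-05 to 0.522. A further 3 members were called by DESeq2 only, mt-Atp8 (log2 fold change 0.72 in edgeR), mt-Nd2 (0.70) and mt-Nd4 (0.65).

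mt-Co1 was at 12848, 17689 and 16720 CPM in IF + PBS and at 20066, 24396 and 18675 CPM in IF + NaIO3 (log2 fold change 0.42 ± 0.13 (SE), edgeR adjusted p = 0.220). mt-Cytb, which carries electrons through complex III, was at 5434, 6913 and 7014 CPM and 9314, 11436 and 7678 CPM (log2 fold change 0.56 ± 0.14 (SE), edgeR adjusted p = 0.212). Neither gene's groups overlapped. The other 6 mRNAs, mt-Nd1, mt-Nd3, mt-Nd6, mt-Co2, mt-Co3 and mt-Atp6, had log2 fold changes of 0.49, 0.56, 0.50, 0.44, 0.31 and 0.46 with overlapping groups. The 7 complex I mRNAs had a median log2 fold change of 0.65, the 3 of complex IV one of 0.42 and the 2 of complex V one of 0.59.

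**Figure D2:**
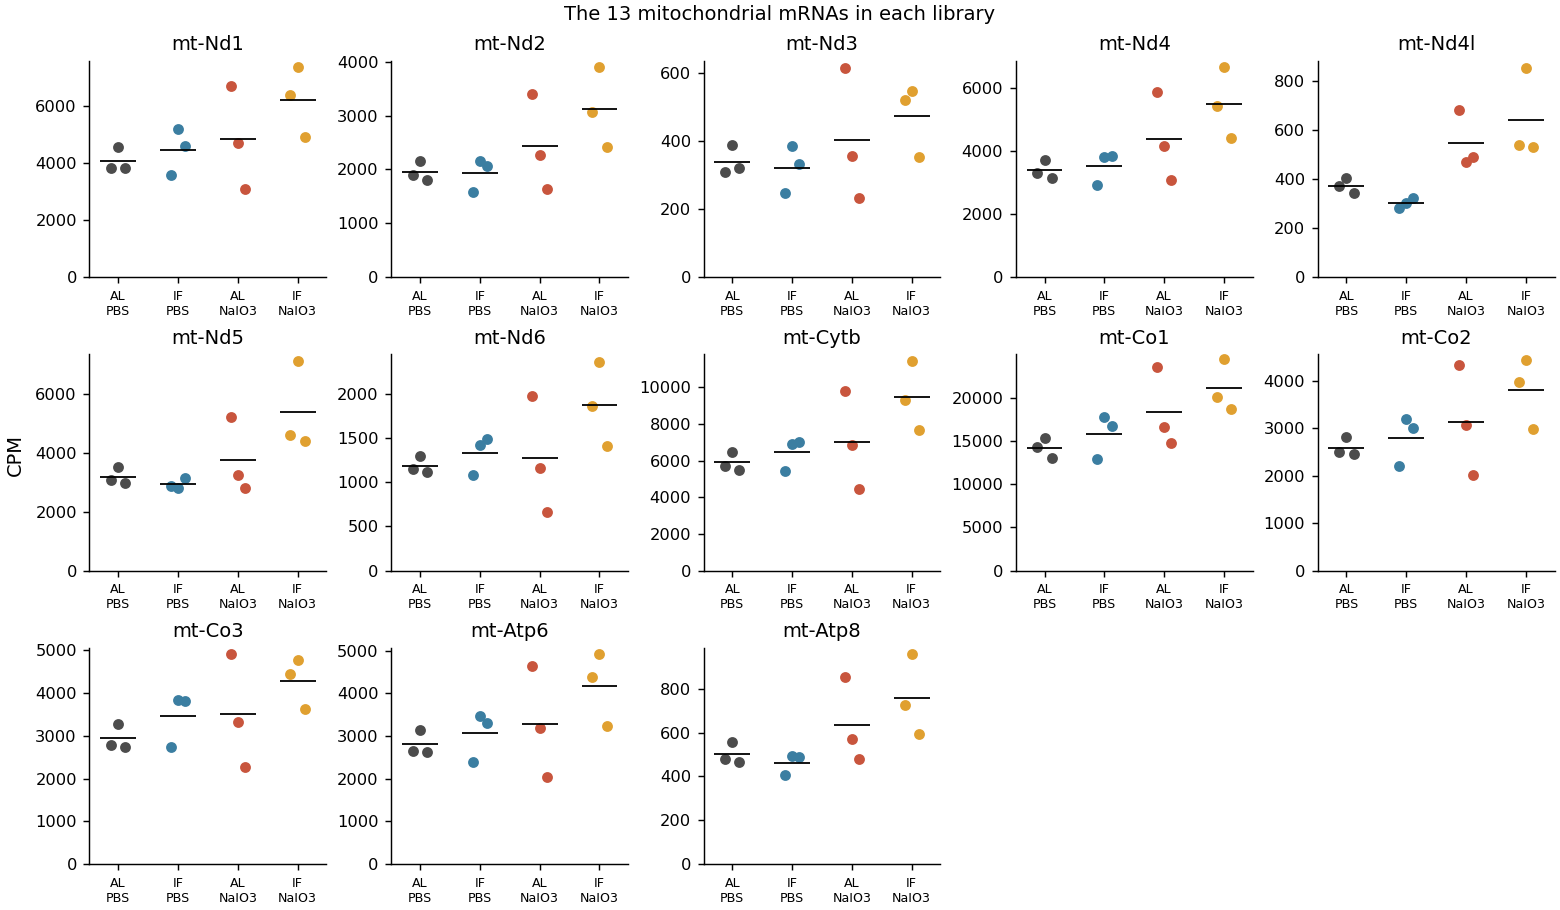
Levels of the 13 mitochondrial mRNAs in CPM (vertical axes, from 0) in each library of the 4 groups, with the group mean as a line. The 3 IF + NaIO3 libraries lie above the 3 IF + PBS libraries for 7 of the mRNAs, and AL + NaIO3 replicate 1 (leftmost of its group) lies above the AL + PBS libraries for all 13.

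In AL mice the 3 NaIO3 libraries lay far apart. All 13 mRNAs again had a fitted log2 fold change above 0 in AL + NaIO3 against AL + PBS, from 0.10 to 0.56 with a median of 0.26, against a median of 0.01 and 52.3% above 0 over all genes tested. This rested on AL + NaIO3 replicate 1, since without it 5 of the 13 were above 0 and the median was -0.06, and it was 0.50 without AL + NaIO3 replicate 3. mt-Co1 was at 14292, 15339 and 13023 CPM in AL + PBS and 23548, 16552 and 14722 CPM in AL + NaIO3 (log2 fold change 0.37 ± 0.32 (SE)), where replicate 1 was far above the PBS range and replicate 3 within it. edgeR called 0 of the 13 mRNAs and 0.0769% of all genes, DESeq2 0 and 2.46%, and limma 0 and 0.0641%.

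The only mitochondrial mRNA whose groups did not overlap was mt-Nd4l, at 370.2, 406 and 344 CPM in AL + PBS and 683, 469 and 488 CPM in AL + NaIO3 (log2 fold change 0.56 ± 0.18 (SE), edgeR adjusted p = 0.348), and its log2 fold change was 0.36 to 0.66 as each library was left out. It was also the only one with an unadjusted p under 0.05. Over all genes, 9.67% did not overlap with AL + NaIO3 higher and 8.64% with it lower, and 7.51% and 2.74% had an unadjusted p under 0.05 in these directions. mt-Nd4, of complex I, had the next largest log2 fold change after mt-Nd4l (0.38), and mt-Nd6, of complex I and the only one of the 13 encoded on the light strand, the smallest (0.10).

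Between the diets after NaIO3, the 13 mRNAs had log2 fold changes of 0.19 to 0.56 in IF + NaIO3 against AL + NaIO3, with a median of 0.32, against -0.01 over all genes tested, of which 48.1% were above 0. The groups overlapped for all 13, and 0 had an unadjusted p under 0.05 in edgeR. The largest were mt-Nd6 (0.56 ± 0.38 (SE), edgeR adjusted p = 0.594) and mt-Nd5 (0.51 ± 0.33 (SE), edgeR adjusted p = 0.572). As each library was left out, mt-Nd6 ran from 0.25 to 1.03 and mt-Nd5 from 0.26 to 0.83. mt-Nd6 was at 1973, 1164 and 665 CPM in AL + NaIO3 and 1856, 2359 and 1412 CPM in IF + NaIO3, so that AL + NaIO3 replicate 3 was the lowest of the 12 libraries and replicate 1 lay inside the IF range. Since the strand setting of the counting is not given, the mt-Nd6 counts may include reads of the opposite strand. Leaving out AL + NaIO3 replicate 3 brought the median of the 13 to 0.11, and leaving out AL + NaIO3 replicate 1 brought it to 0.67. Over all genes tested, edgeR called 0.0383%, DESeq2 2.94% and limma 0.102%.

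Markers of other cell types set AL + NaIO3 apart from both AL + PBS and IF + NaIO3. The 10 macrophage and microglia markers summed to 59.5 to 67.4 CPM in AL + PBS, 143 to 401 CPM in AL + NaIO3 and 51.4 to 71.5 CPM in IF + NaIO3, and each of the 10 was higher in all AL + NaIO3 libraries than in those of either other group. The 7 endothelial markers summed to 285 to 295, 324 to 573 and 263 to 307 CPM in the same order of groups, and the 10 inner retinal neuron markers to 2929 to 3266, 2563 to 2858 and 3127 to 3328 CPM. The sums of these 3 lists in AL + NaIO3 overlapped with neither other group. Those of the 9 pericyte and smooth muscle markers were 79.8 to 100.5, 106 to 358 and 84.4 to 108 CPM, so that AL + NaIO3 overlapped with IF + NaIO3 alone. No marker of these lists was at 0 in a group, and their part in the levels of the subunit genes, mitochondrial and nuclear, was not tested.

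Without NaIO3 the mitochondrial mRNAs of the diets lay on both sides of 0. In IF + PBS against AL + PBS, 8 of the 13 mRNAs were above 0 and 5 below, with a median log2 fold change of 0.11 that was -0.00028 without IF + PBS replicate 2 and 0.24 without IF + PBS replicate 1. mt-Nd4l was the lowest, at 283, 302 and 321 CPM against 370.2, 406 and 344 CPM (log2 fold change -0.31 ± 0.09 (SE), unadjusted p = 0.00757, edgeR adjusted p = 0.194), and its groups did not overlap. mt-Co3, of complex IV, was the highest, with a log2 fold change of 0.24 ± 0.13 (SE) and overlapping groups.

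The make-up of the mitochondrial transcript pool was also measured, as each mRNA's share of the 13 mRNAs' counts. mt-Co1 took 30.6 to 38.8% in the 12 libraries, and its largest share was in AL + NaIO3 replicate 3. mt-Nd4l and mt-Nd4 adjoin and overlap by a few bases (chrM:9877-10173 and chrM:10167-11544, GRCm38), as do mt-Nd5 and mt-Nd6 on opposite strands (chrM:11742-13565 and chrM:13552-14070), and how reads in an overlap were counted is not stated. For every 100 mt-Nd4 counts there were 11.3, 10.9 and 10.9 mt-Nd4l counts in AL + PBS, 9.75, 7.92 and 8.33 in IF + PBS, 11.7, 11.3 and 15.9 in AL + NaIO3 and 9.94, 12.8 and 12.004 in IF + NaIO3. The 3 IF + PBS libraries were the lowest of all 12, and AL + NaIO3 replicate 3 was the highest. For every 100 mt-Nd5 counts there were 37.2, 36.9 and 37.7 mt-Nd6 counts in AL + PBS, 38.028, 50.8 and 47.4 in IF + PBS, 37.9, 36.1 and 23.8 in AL + NaIO3 and 40.5, 33.2 and 32.2 in IF + NaIO3. Here IF + PBS replicates 2 and 3 were the highest and AL + NaIO3 replicate 3 the lowest, while the 3 AL + PBS libraries lay close together.

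In some libraries most nuclear genes lay on the same side of their AL + PBS means. For each library the median log2 difference of the 84 tested nuclear genes from their AL + PBS means was -0.08, 0.11 and -0.03 in AL + PBS, -0.11, 0.28 and 0.18 in IF + PBS, 0.33, -0.05 and -0.32 in AL + NaIO3 and 0.29, 0.19 and -0.0014 in IF + NaIO3. In AL + NaIO3 replicate 1, 79 of the 84 genes lay above the AL + PBS mean, and in AL + NaIO3 replicate 3, 73 lay below it. By contrast, 42 lay above and 42 below in IF + NaIO3 replicate 3, and 29 above and 55 below in AL + NaIO3 replicate 2. The 4 complex II genes were split in AL + NaIO3 replicate 3, with 2 above and 2 below. The same medians of the 13 mitochondrial mRNAs were -0.05, 0.15 and -0.09 in AL + PBS, -0.22, 0.23 and 0.19 in IF + PBS, 0.75, 0.21 and -0.36 in AL + NaIO3 and 0.63, 0.94 and 0.31 in IF + NaIO3. Over all 15970 genes tested the library medians stayed between -0.01 and 0.0063. The photoreceptor markers, at 72355, 42643 and 21935 CPM in AL + NaIO3, had the same order over these 3 libraries as both medians. Their part in these differences was not tested.

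**Figure D3:**
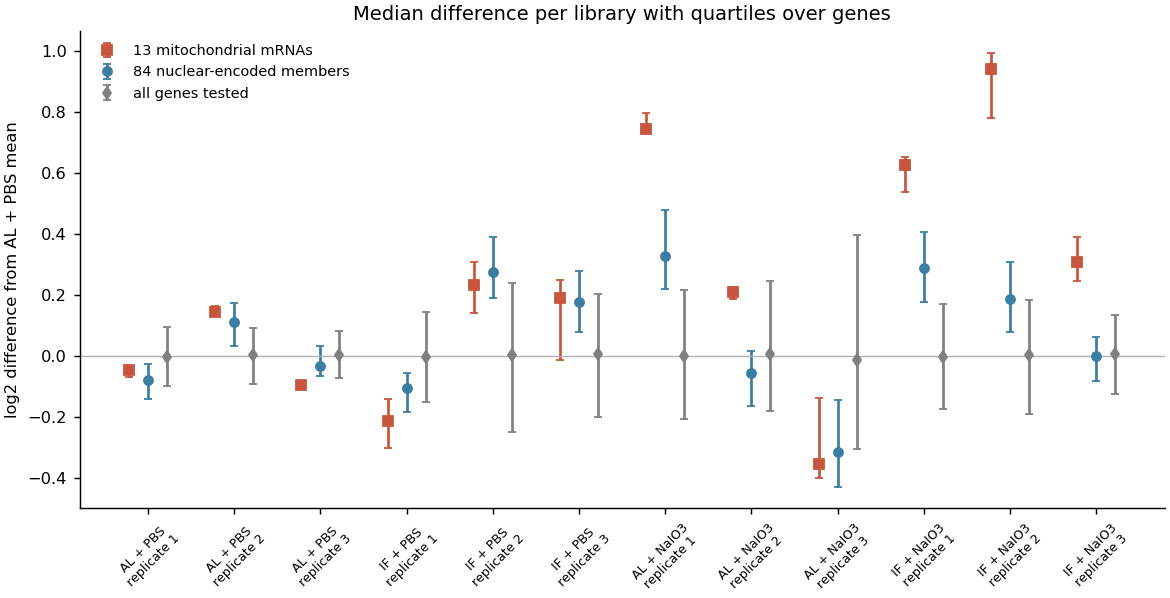
Median log2 difference from the AL + PBS mean (vertical axis) in each of the 12 libraries for the 13 mitochondrial mRNAs, the 84 tested nuclear subunit genes and all genes tested, with bars from the lower to the upper quartile over genes. The 3 AL + NaIO3 libraries differ widely from each other for both genomes, and in the 3 IF + NaIO3 libraries the mitochondrial medians (0.63, 0.94 and 0.31) exceed the nuclear ones (0.29, 0.19 and -0.0014).

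With all libraries of a comparison, no nuclear subunit gene was called by edgeR, DESeq2 or limma, although edgeR called Ndufs3 once 1 library was left out, as described with that gene. The filter on low counts was passed by 84 of the 87 nuclear genes. Cox8c and a second entry named Atp5o had 0 counts in all libraries, and Cox7b2 had at most 7 in a library, so these 3 were not tested. In IF + PBS against AL + PBS, 70 of 84 had a log2 fold change above 0, against 50.9% of all genes tested, with a median of 0.11 against 0.0055. Of these, 6 were higher and 1 lower at an unadjusted p under 0.05, against 8.22% and 8.85% of all genes, and 3 did not overlap with IF + PBS higher and 0 with it lower, against 10.6% and 11.2%, so neither share of members stood above that of all genes. Over all genes, edgeR called 0%, DESeq2 1.17% and limma 0%. Several summed marker lists did not overlap between IF + PBS and AL + PBS. The RPE markers were higher in IF + PBS (2433 to 3039 against 2231 to 2419 CPM), and the photoreceptor markers were lower (56673 to 62114 against 63050.5 to 66192 CPM), as were those of Müller cells (3497 to 3634 against 3804 to 4266 CPM) and of choroid and sclera stroma (116 to 169 against 195 to 269 CPM). The erythrocyte markers (41.7 to 57.3 against 65.1 to 84.9 CPM), the lens markers (3.14 to 3.88 against 6.08 to 179 CPM) and, by a narrow margin, the endothelial markers (273 to 285 against 285 to 295 CPM) were lower too, beside the skeletal muscle markers given with Cox6a2. Their part in the subunit levels was not tested. The nuclear median was 0.21 without IF + PBS replicate 1 and 0.03 without IF + PBS replicate 2.

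In AL + NaIO3 against AL + PBS, 52 of the 84 were above 0 with a median of 0.04, which was -0.17 without AL + NaIO3 replicate 1 and 0.14 without AL + NaIO3 replicate 3. No nuclear gene had an unadjusted p under 0.05 in edgeR, and 1, Atp5g2, a gene of the membrane ring of complex V, did not overlap, AL + NaIO3 being higher. Over all genes 7.51% were higher and 2.74% lower at that p, and 9.67% and 8.64% did not overlap. In IF + NaIO3 against AL + NaIO3, 73 of 84 were above 0, against 48.1% of all genes tested. Their median was 0.13, or 0.0067 without AL + NaIO3 replicate 3 and 0.35 without AL + NaIO3 replicate 1. The number above 0 was 50 on FPKM, 65 with upper quartile scaling and 44 without AL + NaIO3 replicate 3. At an unadjusted p under 0.05, 2 were higher and 1 lower, against 3.46% and 8.22% of all genes, and the same numbers did not overlap, against 8.88% and 10.1%. In IF + NaIO3 against IF + PBS, 52 of 84 were above 0 with a median of 0.05, which turned to -0.02 on FPKM, and 3 were higher and 1 lower at an unadjusted p under 0.05, against 8.47% and 6.72% of all genes. Ndufs1, Uqcrc2 and Atp5pb, of the stalk of complex V, did not overlap, with IF + NaIO3 higher, as in 10.1% of all genes (10.9% lower).

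**Figure D4:**
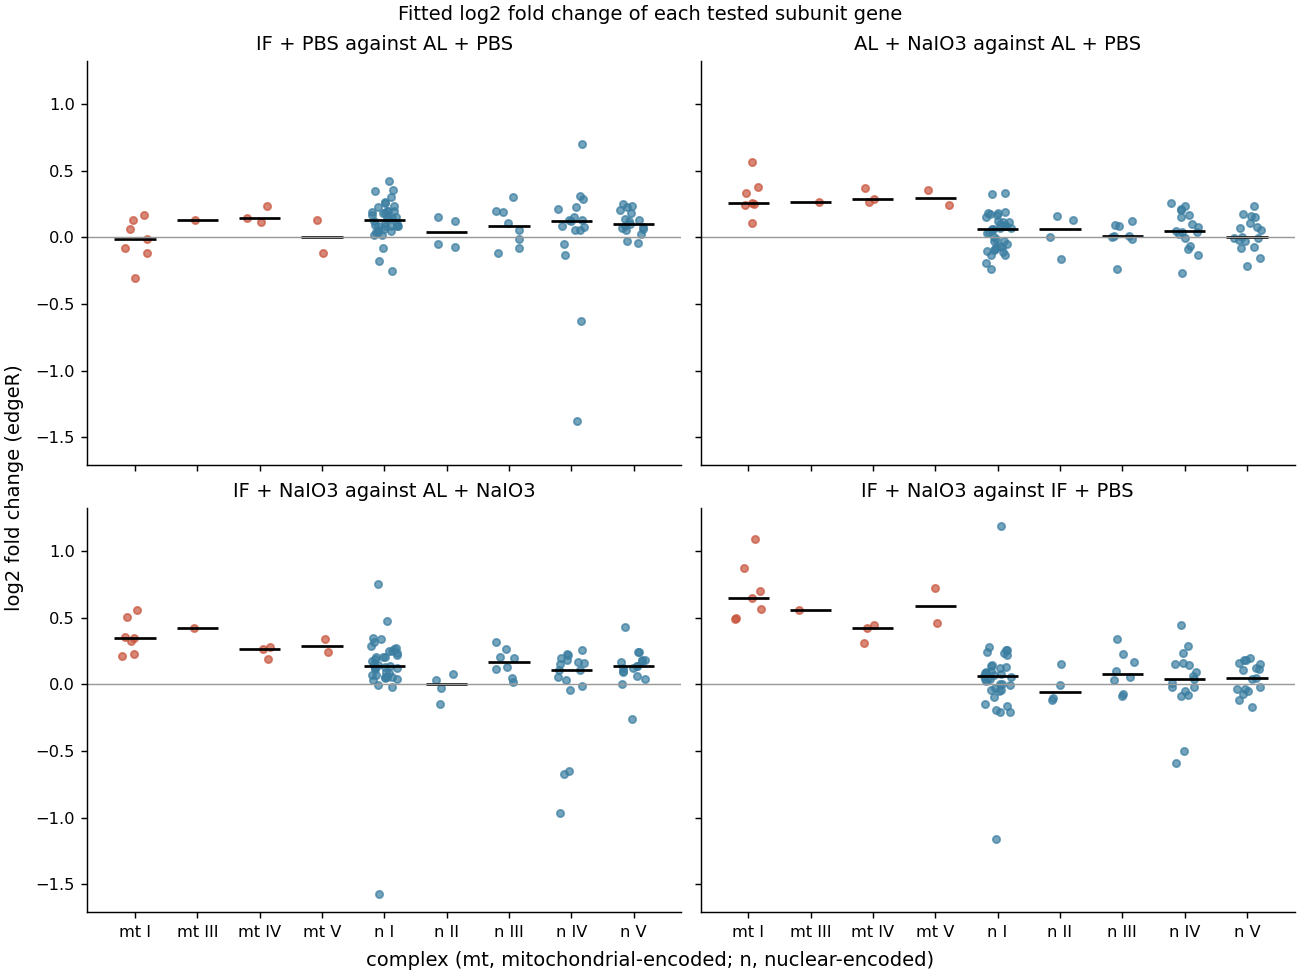
Log2 fold change (vertical axis) of each tested subunit gene in the 4 comparisons, by genome and complex, with the median of each class as a line. In IF + NaIO3 against IF + PBS all 13 mitochondrial mRNAs lie between 0.31 and 1.09, while the nuclear medians lie near 0.

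Complex I has 38 nuclear genes here, some of which, such as Ndufv1, Ndufs1 and Ndufs7, encode the hydrophilic core that binds NADH, the flavin and the iron-sulfur clusters. In IF + PBS against AL + PBS, 35 of the 38 were above 0, against 50.9% of all genes tested, the median log2 fold change being 0.13. In IF + PBS replicate 1, however, 32 of the 38 lay below their AL + PBS means, while 37 and 36 lay above them in replicates 2 and 3. The number above 0 was also 35 in IF + NaIO3 against AL + NaIO3, or 19 without AL + NaIO3 replicate 3. Ndufs7, which carries the last iron-sulfur cluster before ubiquinone, was at 71.8, 65.8 and 62.6 CPM in AL + PBS and 77.1, 93.5 and 85.9 CPM in IF + PBS (log2 fold change 0.36 ± 0.10 (SE), edgeR adjusted p = 0.188), without overlap. Its adjusted p ran over the alternatives from 0.0222 to 0.532, the lowest without IF + PBS replicate 1, at a fold under 1.5 throughout. Ndufv1, which binds NADH, was at 145, 141 and 143 CPM and 149.6, 191 and 171 CPM (log2 fold change 0.25 ± 0.10 (SE), edgeR adjusted p = 0.252), also without overlap. After NaIO3 the diets overlapped for both, Ndufs7 lying at 70.7, 69.9 and 45.5 CPM in AL + NaIO3 and 84.6, 68.7 and 67.6 CPM in IF + NaIO3, and Ndufv1 having a log2 fold change of 0.22 ± 0.16 (SE).

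Ndufs1, the largest core subunit, and Ndufv2, its neighbour in the NADH-oxidizing module, were a little higher in IF + NaIO3 than in IF + PBS. Ndufs1 was at 115, 103 and 103 CPM in IF + PBS and 121, 142 and 125 CPM in IF + NaIO3 (log2 fold change 0.28 ± 0.10 (SE), edgeR adjusted p = 0.261). Its groups did not overlap, whereas those of Ndufv2 did (log2 fold change 0.26 ± 0.11 (SE), edgeR adjusted p = 0.295). Ndufs8, another iron-sulfur subunit of the core, had log2 fold changes of 0.12 in IF + PBS against AL + PBS, 0.07 in AL + NaIO3 against AL + PBS, 0.14 in IF + NaIO3 against AL + NaIO3 and 0.09 in IF + NaIO3 against IF + PBS, with overlapping groups throughout. Among the accessory subunits, Ndufa10 was at 127, 126 and 121 CPM in AL + PBS, 124, 115 and 76.0 CPM in AL + NaIO3 and 151, 163 and 128 CPM in IF + NaIO3. Its level in IF + NaIO3 lay above all AL + NaIO3 libraries (log2 fold change 0.47 ± 0.19 (SE), edgeR adjusted p = 0.410), the lowest of which was AL + NaIO3 replicate 3, and the fold ranged from -0.38 to -0.06 in AL + NaIO3 against AL + PBS as each library was left out.

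The 4 genes of complex II had log2 fold changes of -0.16 to 0.16 over the 4 comparisons. Sdha was at 350.4, 364 and 365 CPM in AL + PBS, 343, 355 and 328 in IF + PBS, 352, 285 and 319.9 in AL + NaIO3 and 338, 344 and 336 in IF + NaIO3. Sdhb, the iron-sulfur subunit, and the membrane anchors Sdhc and Sdhd had log2 fold changes of 0.16, -0.0012 and 0.13 in AL + NaIO3 against AL + PBS and -0.15, 0.03 and -0.03 in IF + NaIO3 against AL + NaIO3. The groups of all 4 genes overlapped in every comparison, and the smallest adjusted p in edgeR was 0.419.

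Complex III has 8 nuclear genes, all with a log2 fold change above 0 in IF + NaIO3 against AL + NaIO3, from 0.02 to 0.31, and none past the threshold (edgeR, smallest adjusted p = 0.696). Over all genes tested 48.1% were above 0. Without AL + NaIO3 replicate 3, 4 of the 8 were above 0, and the median was 0.01 in place of 0.16. Uqcrc1, a core protein of the complex, was among the 3 largest negative values in AL + NaIO3 against AL + PBS, at 110.2, 101 and 163 CPM in AL + PBS and 145, 92.6 and 76.5 CPM in AL + NaIO3 (log2 fold change -0.24 ± 0.27 (SE)). AL + PBS replicate 3 was its highest library, and the fold was -0.0053 without it and -0.55 without AL + NaIO3 replicate 1. Uqcrc2, its partner, was at 125, 129 and 127 CPM in IF + PBS and 145, 165 and 134 CPM in IF + NaIO3, without overlap (log2 fold change 0.22 ± 0.10 (SE), edgeR adjusted p = 0.323). Uqcrh was at 163, 102 and 76.8 CPM in AL + NaIO3, a range wider than any difference between its group means.

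None of the nuclear genes of complex V was called. The median log2 value of its 17 tested genes was 0.10 in IF + PBS against AL + PBS, 0.0031 in AL + NaIO3 against AL + PBS, 0.13 in IF + NaIO3 against AL + NaIO3 and 0.05 in IF + NaIO3 against IF + PBS, and their values ran from -0.26 to 0.43 over these comparisons. Without AL + NaIO3 replicate 3 the medians were 0.12 in AL + NaIO3 against AL + PBS and 0.02 in IF + NaIO3 against AL + NaIO3. Atp5b was at 980.5, 994 and 937 CPM in AL + PBS, 939, 978 and 935 in IF + PBS, 981, 725 and 883 in AL + NaIO3 and 932, 937 and 911 in IF + NaIO3. The lowest value was that of AL + NaIO3 replicate 2.

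Complex IV has tissue-specific subunits, and some of these varied widely. Cox6a2, Cox7a1 and Cox8b are the heart and skeletal muscle forms of subunits whose ubiquitous forms are Cox6a1, Cox7a2 and Cox8a. Here the muscle forms averaged 4.42, 5.04 and 10.7 FPKM, against 185, 80.7 and 273 FPKM for their partners. Cox6a2 was at 8.32, 2.83 and 4.89 CPM in AL + PBS and 0.577, 3.17 and 2.39 CPM in IF + PBS, the largest negative log2 fold change of any member in that comparison (-1.38 ± 0.54 (SE), edgeR adjusted p = 0.247), although AL + PBS replicate 2 overlapped the IF range. After NaIO3 it was at 5.61, 5.76 and 1.91 CPM in AL + NaIO3 and 0.688, 2.15 and 5.58 CPM in IF + NaIO3 (log2 fold change -0.68 ± 0.72 (SE)), and the fold was -1.65 to -0.21 as each library was left out, lowest without IF + NaIO3 replicate 3 and nearest to 0 without IF + NaIO3 replicate 1. The range after PBS was -1.84 to -0.91.

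The 15 skeletal muscle markers differed between the diets in the same direction as Cox6a2 after PBS. They summed to 467, 235 and 386 CPM in AL + PBS, 48.3, 189 and 139 in IF + PBS, 472, 332 and 148 in AL + NaIO3 and 114, 196 and 388 in IF + NaIO3. In IF + PBS against AL + PBS all 14 tested markers were lower, 12 of them without overlap, against 11.2% of all genes tested. IF + PBS replicate 1 and IF + NaIO3 replicate 1 had the least of both the markers and Cox6a2. How much of the Cox6a2 difference follows the amount of muscle in the dissection was not tested.

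Cox7a1 was at 3.04, 2.74 and 2.66 CPM in AL + PBS and 1.25, 2.84 and 1.37 CPM in IF + PBS (log2 fold change -0.63 ± 0.35 (SE)). The order of its libraries was that of the muscle markers in IF + PBS and AL + NaIO3, but not in AL + PBS or IF + NaIO3. The part of muscle in its level was not tested. Cox8b was at 5.13, 4.34 and 8.05 CPM in AL + NaIO3 and 4.02, 1.71 and 3.33 CPM in IF + NaIO3, lower in IF without overlap (log2 fold change -0.97 ± 0.42 (SE), edgeR adjusted p = 0.426). Its log2 fold change was -1.24 to -0.66 as each library was left out. The order differed from that of the muscle markers, since AL + NaIO3 replicate 3 had the most Cox8b and the fewest marker counts of its group. The ubiquitous partners lay on the other side of 0 in IF + PBS against AL + PBS, with log2 fold changes of 0.21 for Cox6a1, 0.12 for Cox7a2 and 0.31 for Cox8a.

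Other isoform pairs of complex IV showed no called difference. Cox4i2, a form of Cox4 used in lung and under low oxygen, averaged 26.8 FPKM against 309 FPKM for Cox4i1 and had log2 fold changes of 0.05 in IF + PBS and 0.15 in AL + NaIO3 against AL + PBS. Cox6b2, the testis form of Cox6b1, was at 8.39, 5.55 and 4.66 CPM in AL + PBS, 7.57, 11.9 and 10.7 CPM in IF + PBS and 7.14, 5.93 and 8.25 CPM in IF + NaIO3. It had the largest positive value of any member in IF + PBS against AL + PBS (0.70 ± 0.25 (SE), edgeR adjusted p = 0.232) and was lower in IF + NaIO3 than in IF + PBS (-0.50 ± 0.22 (SE), edgeR adjusted p = 0.318), with overlapping groups in both. Cox6b1 itself was ahead of Cox6b2 in level (113 against 12.2 FPKM), as Cox7b (58.1 FPKM) was of Cox7b2 (0.0523 FPKM). Cox7a2l averaged 105 FPKM and its log2 fold changes lay between -0.07 and 0.15.

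**Figure D5:**
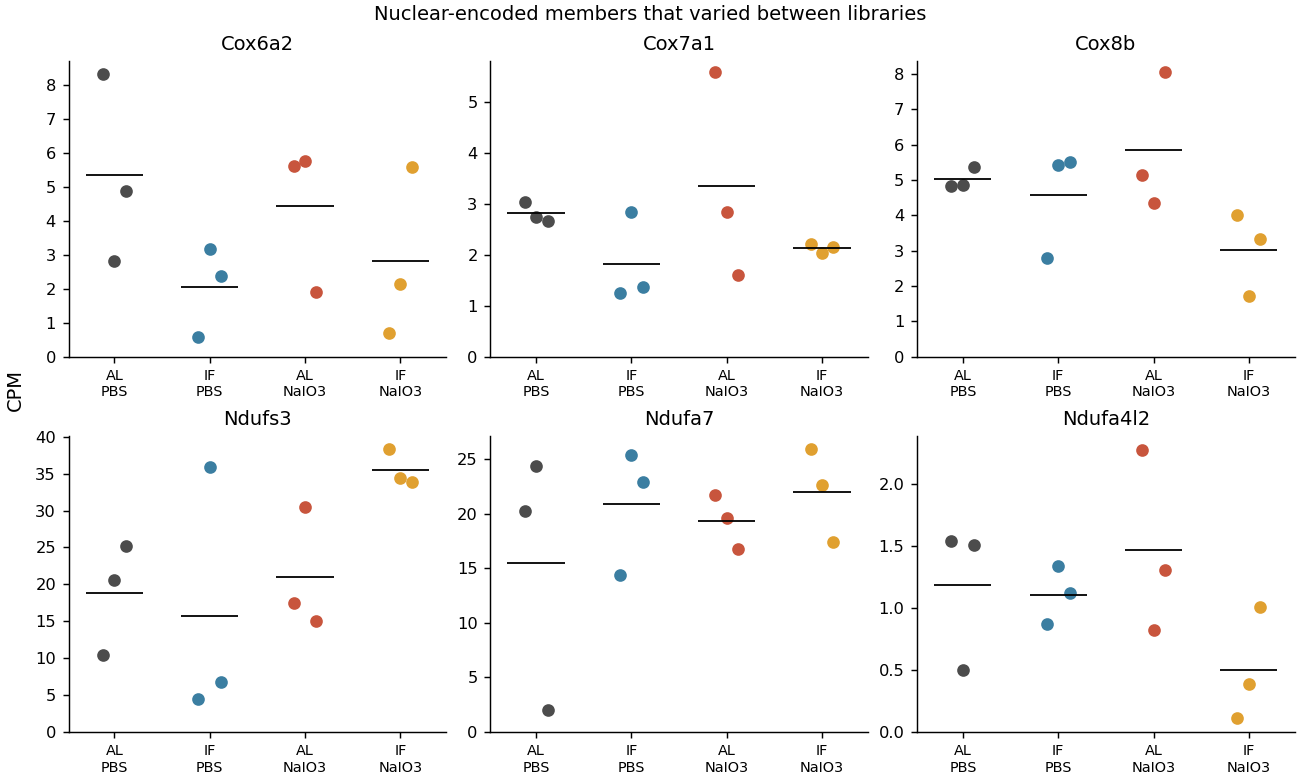
CPM (vertical axes, from 0) of the 6 nuclear members Cox6a2, Cox7a1, Cox8b, Ndufs3, Ndufa7 and Ndufa4l2 in each library of the 4 groups, with the group mean as a line. Ndufs3 is lowest at 4.49 CPM in IF + PBS replicate 1, Ndufa7 at 1.97 CPM in AL + PBS replicate 3, and Cox6a2 is lowest in IF + PBS replicate 1 and IF + NaIO3 replicate 1.

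Within groups, the SD of log2 CPM had a median of 0.247 over the 84 nuclear genes and 0.339 over the mitochondrial mRNAs, against 0.228 over all genes tested. It was largest for Ndufa7 (0.965), Cox6a2 (0.918) and Ndufs3 (0.870). Ndufa7, an accessory subunit of complex I (chr17:33824572-33838317, GRCm38), was at 20.2, 24.3 and 1.97 CPM in AL + PBS and 14.4, 25.4 and 22.9 CPM in IF + PBS, and its log2 fold change of 0.42 ± 0.61 (SE) rested on AL + PBS replicate 3 alone, being -0.10 without it. Ndufs3 (chr2:90894634-90904827, overlapping Kbtbd4), a core subunit of the same module as Ndufs7, was at 10.5, 20.6 and 25.2 CPM in AL + PBS, 4.49, 36.0 and 6.77 in IF + PBS, 17.4, 30.5 and 15.0 in AL + NaIO3 and 38.4, 34.4 and 33.9 in IF + NaIO3. The IF + NaIO3 libraries were tight and lay above all AL + NaIO3 libraries (log2 fold change 0.75 ± 0.26 (SE), or 0.56 to 1.12 as each library was left out, edgeR adjusted p = 0.351). In IF + PBS, by contrast, replicate 2 was high and the other libraries low. Its log2 fold change in IF + NaIO3 against IF + PBS was 1.18 ± 0.58 (SE) with all libraries (edgeR adjusted p = 0.364) and 2.66 without IF + PBS replicate 2 (edgeR adjusted p = 0.00123, with 0.0129% of all genes called there), and the adjusted p ran over the alternatives from 0.00123 to 0.677.

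Ndufa4l2 had the most negative log2 fold change of all members in both comparisons of IF + NaIO3. It was at 2.28, 0.818 and 1.30 CPM in AL + NaIO3, 0.866, 1.34 and 1.12 CPM in IF + PBS and 0.115, 0.386 and 1.00 CPM in IF + NaIO3, where the floor of 3 counts is 0.0697 to 0.114 CPM. The log2 fold change was -1.57 ± 0.78 (SE) against AL + NaIO3 (edgeR adjusted p = 0.480) and -1.16 ± 0.66 (SE) against IF + PBS (edgeR adjusted p = 0.414), the groups overlapped in both, and the folds were -2.54 to -1.10 and -2.12 to -0.69 as each library was left out. Ndufa4, its abundant relative, was at 239, 147 and 106 CPM in AL + NaIO3 and 226, 211 and 168 CPM in IF + NaIO3, with a log2 fold change of 0.29 ± 0.28 (SE).

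Whether the response to NaIO3 differed between the diets was tested as an interaction over the 12 libraries. No member was called by edgeR, DESeq2 or limma (0.0313% of all 15970 genes were called by edgeR, 1.25% by DESeq2 and 0.0438% by limma), and 0 members had an unadjusted p under 0.05 in edgeR, 1 in DESeq2 and 3 in limma, against 5.08% of all genes above 0 and 6.88% below in edgeR. All 13 mitochondrial mRNAs had an interaction above 0, against 47.6% of all genes, with a median of 0.30, or 0.61 without AL + NaIO3 replicate 1 and 0.06 without AL + NaIO3 replicate 3. Of the 13, 11 were above 0 on FPKM and 12 with upper quartile scaling. The largest interaction was that of mt-Nd5 (0.64 ± 0.34 (SE), edgeR adjusted p = 0.458). The nuclear genes had a median interaction of 0.02, or -0.13 without AL + NaIO3 replicate 3, and it turned to -0.04 with upper quartile scaling and to -0.09 on FPKM.

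Genes that build, feed and regulate the chain were examined as 6 lists of 9 to 45 genes, 121 genes of which passed the filter. In no comparison did edgeR call any of them. At an unadjusted p under 0.05 in edgeR, 18 were higher and 8 lower in IF + PBS against AL + PBS, against 8.22% and 8.85% of all genes. The counts were 2 and 3 in AL + NaIO3 against AL + PBS (7.51% and 2.74% of all genes), 4 and 1 in IF + NaIO3 against AL + NaIO3 (3.46% and 8.22%), and 7 and 7 in IF + NaIO3 against IF + PBS (8.47% and 6.72%). DESeq2 called 1 gene of the lists in IF + NaIO3 against AL + NaIO3 (Ndufaf2), where it called 2.94% of all genes. It called 2 in AL + NaIO3 against AL + PBS (Ndufaf2 and Esrrb, both lower), where it called 2.46% of all genes, and the interaction of these same 2 genes, beside 1.25% of all genes. It called 0 in the remaining comparisons, and limma called 0 in each.

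Between the diets after NaIO3, 33 of 44 tested assembly factors were above 0 (median log2 fold change 0.07), as were 16 of 20 genes of mitochondrial DNA expression (0.10). The same held for 9 of 13 biogenesis regulators (0.18), 14 of 18 citric acid cycle genes (0.10), 10 of 18 electron carriers and donors (0.07) and 7 of 8 genes of nucleotide and phosphate exchange (0.10). Over all genes tested 48.1% were above 0, with a median of -0.01. In AL + NaIO3 against AL + PBS the same lists had medians between -0.08 and -0.02. Without AL + NaIO3 replicate 3 the list medians ran from -0.04 to 0.14 between the diets after NaIO3, and from -0.13 to 0.10 in AL + NaIO3 against AL + PBS. Between the diets, 22 of the 44 assembly factors and 8 of the 18 electron carriers and donors were then above 0. So were 14 of 20 genes of mitochondrial DNA expression, 10 of 13 biogenesis regulators, 15 of 18 citric acid cycle genes and 6 of 8 exchange genes. Both comparisons share the AL + NaIO3 libraries.

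The assembly factor with the smallest p between the diets after NaIO3 was Ndufaf2, which stays bound to complex I until late in its assembly. It was at 34.9, 46.4 and 32.6 CPM in AL + PBS, 45.5, 46.1 and 54.7 in IF + PBS, 23.0, 18.1 and 10.7 in AL + NaIO3 and 50.6, 49.2 and 46.0 in IF + NaIO3. All 3 AL + NaIO3 libraries lay below the other 9, and their order was that of the photoreceptor markers, whose part was not tested. The log2 fold change was -1.13 ± 0.28 (SE) in AL + NaIO3 against AL + PBS (edgeR adjusted p = 0.260) and 1.48 ± 0.25 (SE) in IF + NaIO3 against AL + NaIO3 (edgeR adjusted p = 0.115), where 4 alternatives called it. Besides DESeq2 these were the replicate block, which called 0.179% of all genes, the fit of all 12 libraries (1.19%) and the fit without AL + NaIO3 replicate 3 (0.476%). Its adjusted p in this comparison ran over the alternatives from 1.04e-05 to 0.536.

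Of the regulators, Esrrb, a nuclear receptor enriched in rods, had the smallest p in IF + NaIO3 against AL + NaIO3. It was at 566, 493 and 519 CPM in AL + PBS, 373, 269.9 and 147 CPM in AL + NaIO3 and 426, 483 and 459.6 CPM in IF + NaIO3 (log2 fold change 0.78 ± 0.29 (SE) between the latter, edgeR adjusted p = 0.378). Its order within AL + NaIO3 was that of the photoreceptor markers, whose part was not tested. Ppargc1a, the coactivator that drives mitochondrial biogenesis, was at 73.7, 53.5 and 40.8 CPM in AL + NaIO3 and 72.8, 82.7 and 72.7 CPM in IF + NaIO3 (0.43 ± 0.20 (SE), edgeR adjusted p = 0.453). The order within AL + NaIO3 was again that of the photoreceptor markers, whose part was not tested. In IF + NaIO3 against IF + PBS, Ppargc1a did not overlap (0.35 ± 0.10 (SE), edgeR adjusted p = 0.220). Its targets and partners Esrra, Nrf1, Gabpa and Tfam, the last of which packages and transcribes mitochondrial DNA, had log2 fold changes of 0.09, 0.24, 0.18 and 0.06 in IF + NaIO3 against AL + NaIO3, with overlapping groups.

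In the remaining lists the genes with the smallest p in that comparison were Ssbp1, the single-strand binding protein of mitochondrial DNA replication (0.40 ± 0.15 (SE), edgeR adjusted p = 0.379), Ckmt1, the mitochondrial creatine kinase (0.54 ± 0.28 (SE), edgeR adjusted p = 0.495), Pdhb of pyruvate dehydrogenase (0.29 ± 0.14 (SE), edgeR adjusted p = 0.474) and Sqor, which passes electrons from sulfide to ubiquinone. Sqor was the only one of these with a negative value (-1.10 ± 0.43 (SE), edgeR adjusted p = 0.384), at 3.24, 2.81 and 6.91 CPM in AL + NaIO3 and 1.98, 2.32 and 1.84 CPM in IF + NaIO3. As each library was left out, Sqor ran from -1.33 to -0.57 and Ckmt1 from 0.28 to 0.92. Cyc1, the subunit of complex III outside the name rule, was at 132, 126 and 133 CPM in AL + PBS, 137, 179.8 and 150.4 in IF + PBS, 133, 121 and 121 in AL + NaIO3 and 148, 134 and 128 in IF + NaIO3, with a log2 fold change of 0.12 between the diets after NaIO3.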

How the data were processed

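Poly-A selected RNA of 12 eye cup libraries was sequenced in reads of 150 bp. HISAT2, StringTie, DESeq2 and edgeR are named in the submitters' processing notes without a role, and the counting tool and its strand setting are not given in the sources used here. The authors deposited whole-number read counts per protein-coding gene and FPKM values per gene. The notes name GRCm39, but gene coordinates in the files are those of GRCm38: 21203 of 21221 matched genes overlap their GRCm38.p6 RefSeq position and 3560 of 21689 their GRCm39 one. A deposited table of the authors' own comparisons (fold changes and p-values) was not used.

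Counts were fitted with edgeR 4.0.16 (TMM scaling, filterByExpr, quasi-likelihood test) on the 6 libraries of each comparison, and on 12 for the interaction. A gene was called at a Benjamini-Hochberg adjusted p under 0.05 over all genes tested and a fold of at least 1.5 (no fold threshold for the interaction). Errors of fold changes are SE, taken from the fold change and its F statistic. CPM use library sizes scaled by TMM over 12 libraries, and per-library medians use log2(CPM + 0.5). The code was tested on simulated counts. Alternatives were DESeq2 1.42.0, limma 3.58.1 on log2(FPKM + 0.1), upper quartile scaling, scaling from genes that are not members, no filter or at least 10 counts in each library, the 12 libraries together, a replicate block, the adjusted p alone and leaving out each library.

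The members, the gene lists and the cell type markers were chosen with earlier results of these data known. Genes were named by rule: the mitochondrial mRNAs, complex II, the complex I core, the isoform pairs, the most abundant member of each complex, the 3 largest values in each direction per comparison, and the smallest p of each list in IF + NaIO3 against AL + NaIO3, with 5 regulators. Genes named beside these (Uqcrc2, Atp5pb, Atp5g2, Cyc1, and the promoter examples Ndufa6 and Atp5h) were added after their values were seen. Overlapping genes may share reads. The single values of some genes are not reported here.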

Additional observations from a re-analysis of the deposited data

How the results depend on the processing

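Every alternative kept the count of called members at 0 in IF + PBS against AL + PBS, AL + NaIO3 against AL + PBS, IF + NaIO3 against AL + NaIO3 and the interaction. In IF + NaIO3 against IF + PBS, DESeq2 called 5 members, all mitochondrial mRNAs, and 0.729% of all genes, and leaving out 1 library gave 0 to 2, with mt-Nd4l and mt-Nd5 called without IF + PBS replicate 1, where 1.27% of all genes were, and Ndufs3 without IF + PBS replicate 2 (0.0129% of all genes). The adjusted p alone, with no fold threshold, called 0 in edgeR and 7 in DESeq2. The median log2 fold changes over all mitochondrial or all nuclear members and the ratios moved by less than 1 SD between replicates under each alternative, the ratio on FPKM, its leave-one-out values and the medians of complexes and lists without AL + NaIO3 replicate 3 being chosen after seeing the data. With 3 libraries a group that SD is wide, and 1 library could turn a median. As each library was left out, the mitochondrial median ran from -0.06 to 0.50 in AL + NaIO3 against AL + PBS and from 0.40 to 0.68 in IF + NaIO3 against IF + PBS, and the nuclear median from -0.17 to 0.14 and from -0.05 to 0.15. Single genes were followed as 41 values, namely the 3 largest in each direction of each comparison, the smallest p of each list between the diets after NaIO3, and the 13 mitochondrial mRNAs in IF + NaIO3 against IF + PBS. Under the alternatives 557 of their values kept direction and call, 12 became called and 3 changed sign. The members not followed in this way were counted by direction only. Leaving out some library changed the sign of 8 of 13 mitochondrial and 71 of 84 nuclear values in AL + NaIO3 against AL + PBS. The numbers were 4 and 29 in IF + PBS against AL + PBS, and 2 and 39 in IF + NaIO3 against AL + NaIO3. They were 0 and 42 in IF + NaIO3 against IF + PBS, and 5 and 59 in the interaction. In the same order of comparisons, some other alternative changed the sign of 1 and 19, 0 and 1, 0 and 27, 0 and 15, and 2 and 30. These counts of signs were added after seeing the data. Over the libraries left out, Ndufa7 in IF + PBS against AL + PBS ran from -0.10 (without AL + PBS replicate 3) to 0.91, and Cox6a2 in AL + NaIO3 against AL + PBS from -0.58 to 0.20, its values above 0 being 0.20 without AL + PBS replicate 1 and 0.09 without AL + NaIO3 replicate 3. The cause of these changes was not tested. The replicate numbers did not pair the samples (correlations of same-numbered libraries from -0.101 to 0.138), and with the replicate block the counts of called members were 0 in each comparison and the mitochondrial median was 0.55 in IF + NaIO3 against IF + PBS. Cox8c and the second Atp5o entry had 0 counts in each library and Cox7b2 at most 7, so no difference was detectable for them, and every other member had 4 or more counts in each library.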
